A study of Mus musculus with 8 samples.

Results

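The 10 genes described here, *Acadvl*, *Acadl*, *Acadm*, *Acads*, *Hadha*, *Hadhb*, *Hadh*, *Eci1*, *Etfdh* and *Decr1*, encode mitochondrial enzymes of fatty acid beta-oxidation. They were taken by gene symbol from a liver count table of 16540 genes, and all 10 were found and passed the filter on low counts that left 12307 genes for testing. The rule names genes and applies no measured value, although it was set with earlier results of these data known. RNA sequencing counts were available for the livers of 8 male *Apoe*-/- mice, 4 given vehicle and 4 given isoginkgetin (ISOGK), a biflavonoid of *Ginkgo biloba*. Every mouse lacked *Apoe* by its label, which raises plasma cholesterol, and was fed a Western diet. ISOGK was injected into the peritoneum at 20 mg/kg/day for 8 weeks, the vehicle columns are named for the solvent DMSO, and the age of the mice is not given in the labels. The deletion is in the whole body and no group of wild-type mice was included, so each comparison is between treatments within the knockout.

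Mitochondrial beta-oxidation shortens an activated fatty acid by a pair of carbons in each turn, and it is a main source of energy and of ketone bodies in the fasting liver. Each turn has 4 steps, and the enzymes differ in the chain length they accept. Acyl-CoA dehydrogenases start the turn, and pass their electrons through electron transfer flavoprotein (ETF) and its dehydrogenase ETFDH to the respiratory chain. On long chains the later steps are carried out by the trifunctional protein, whose alpha subunit is HADHA and beta subunit HADHB. On medium and short chains they are carried out by separate soluble enzymes, of which HADH is the 3-hydroxyacyl-CoA dehydrogenase. ECI1 and DECR1 handle the double bonds of unsaturated fatty acids.

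Library totals ran from 19605286 to 24461854 counts under vehicle and from 17457106 to 21626399 under ISOGK, and the members together took 0.211% to 0.242% and 0.259% to 0.291% of them. All 8 hepatocyte markers were abundant in every library, with at least 2145550 counts of *Alb*, and none of the 8 was called different between groups. *Apoe* itself was counted 3252 to 6489 times in each library, so reads were still assigned to the deleted gene. Without wild-type mice these counts cannot tell whether the deletion lowered its level. The library of vehicle mouse 4 held 1615 counts of 10 skeletal muscle markers, against 0 to 13 in each of the others. In the ISOGK group the 50 most abundant genes took 46.8% to 49.98% of counts, above the 44.9% to 46.5% of the vehicle group. Of 8 Kupffer cell and macrophage markers 1, *Cd68*, was called lower in the ISOGK group, and their median log2 fold change was -0.54. Their summed level was 1071 to 1355 counts per 1000000 (CPM, scaled with TMM factors) under vehicle and 847 to 1100 CPM under ISOGK, and the part of these shifts in the results was not tested. Of 5 cholangiocyte markers 1, *Sox9*, was called higher, from 4.08 ± 0.431 to 5.83 ± 0.440 CPM (SD, n = 4 each). All 5 had a log2 fold change above 0, with a median of 0.61, 4 had an unadjusted p under 0.05, and their summed level was 27.5 to 34.8 CPM under vehicle and 28.2 to 69.1 CPM under ISOGK. The part of these markers in the results was not tested, and none of the endothelial, stellate or lymphocyte markers was called. In whole liver, a change in the share of a cell type and a change in RNA per cell cannot be told apart.

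Of the 10 transcripts, 7 rose in the ISOGK group, and none was called lower. *Decr1*, *Etfdh*, *Hadhb*, *Eci1*, *Hadha*, *Acadvl* and *Acadl* rose, by 0.81 on the log2 scale for *Decr1* down to 0.35 for *Acadl*. *Acadm*, *Acads* and *Hadh*, the dehydrogenases of medium and short chains among the 10, were not called. A call means an adjusted p under 0.05 in the quasi-likelihood test of edgeR, with Benjamini-Hochberg adjustment over all 12307 genes. By that rule 4.11% of all genes tested were called higher, and 3.44% lower. Among the 1122 genes at least as abundant as *Eci1*, the least abundant of the 10, 12.0% were called higher and 7.04% lower. The median log2 fold change of the members was 0.50, and that of all genes tested 0.002. None of the 10 passed a fold change of 1 on the log2 scale as well, which the study also required and which 0.999% of all genes passed upward and 0.626% downward. With library size in place of TMM scaling, all genes shifted by -0.13 on the log2 scale at the median and the calls over all genes moved from 506 higher and 423 lower to 262 higher and 804 lower. The members' median was then 0.36, with 5 called higher and *Hadh* called lower.

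**Figure D1:**
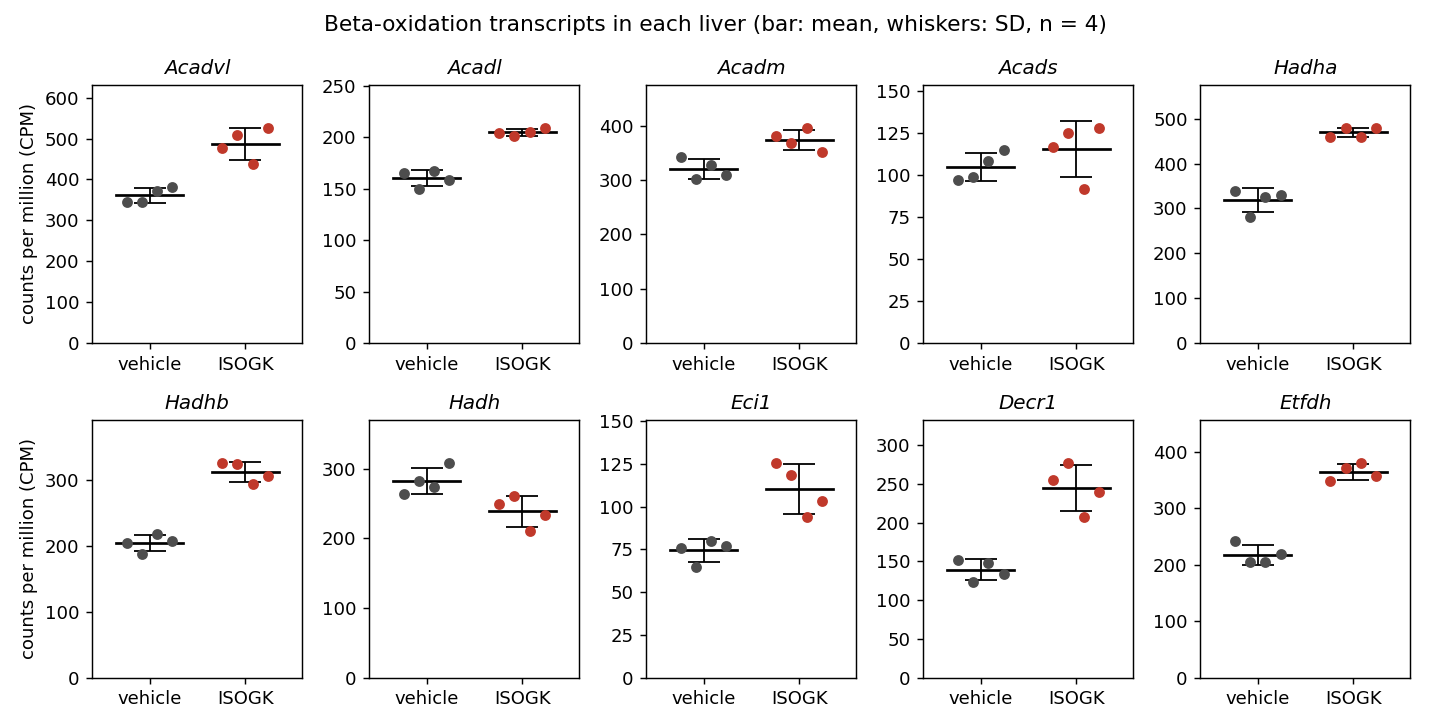
CPM (vertical axes from 0) of the 10 beta-oxidation transcripts in each of 8 livers, vehicle in grey and ISOGK in red. Points are mice, bars the mean and whiskers the SD of 4. In 8 panels every ISOGK point lies above every vehicle point, in that of Hadh every ISOGK point lies below, and in that of Acads the groups overlap.

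The first step was measured through 4 acyl-CoA dehydrogenases, which differ in the chain length they prefer. VLCAD, the product of *Acadvl*, is bound to the inner membrane, and the products of *Acadl*, *Acadm* and *Acads* are soluble in the matrix. The genes lie apart from each other on the mouse genome (GRCm38), *Acadvl* at chr11:70010183-70015411, *Acadl* at chr1:66830839-66863277, *Acadm* at chr3:153922357-153944632 and *Acads* at chr5:115110299-115119346, all on the minus strand. Their upstream sequences are shown because they are the series of one step over 4 chain lengths, of which 2 were called higher and 2 were not called. Each run is the 250 bases before the RefSeq start site (GRCm38.p6, minus strand, 5′ to 3′), with no annotated exon in it. Capitals mark the GC box GGGCGG and the nuclear receptor hexamer AGGTCA on either strand.
Acadvl, chr11:70015429-70015678: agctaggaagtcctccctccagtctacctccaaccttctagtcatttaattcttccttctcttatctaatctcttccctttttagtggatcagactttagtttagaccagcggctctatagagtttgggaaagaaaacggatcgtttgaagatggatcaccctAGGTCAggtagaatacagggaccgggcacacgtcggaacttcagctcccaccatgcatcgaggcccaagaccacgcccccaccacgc
Acadl, chr1:66863310-66863559: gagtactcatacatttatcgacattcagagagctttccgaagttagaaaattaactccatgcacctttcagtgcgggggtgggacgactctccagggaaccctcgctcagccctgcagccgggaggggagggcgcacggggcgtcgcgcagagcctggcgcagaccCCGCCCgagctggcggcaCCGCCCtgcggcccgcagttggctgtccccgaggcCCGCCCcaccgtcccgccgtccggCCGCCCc
Acadm, chr3:153944644-153944893: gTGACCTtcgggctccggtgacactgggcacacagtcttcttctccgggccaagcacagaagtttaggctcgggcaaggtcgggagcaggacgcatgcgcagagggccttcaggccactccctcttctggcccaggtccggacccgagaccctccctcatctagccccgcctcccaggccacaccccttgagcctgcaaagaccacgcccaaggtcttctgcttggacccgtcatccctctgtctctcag
Acads, chr5:115119347-115119596: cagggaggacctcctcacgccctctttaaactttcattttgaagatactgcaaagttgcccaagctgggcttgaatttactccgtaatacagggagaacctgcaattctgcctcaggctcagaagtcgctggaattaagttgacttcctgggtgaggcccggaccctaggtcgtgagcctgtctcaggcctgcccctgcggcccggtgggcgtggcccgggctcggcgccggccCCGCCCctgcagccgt

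The *Acadl* stretch held 4 GC boxes and that of *Acads* 1, while those of *Acadvl* and *Acadm* held no GC box and 1 AGGTCA hexamer each. RefSeq promoters, from 250 bases before to 50 after the start site, were found for 9 of the 10 genes. A GC box was in 7 of these 9, all but *Acadvl* and *Acadm*, and in 35.7% of 32851 promoters. The windows of *Hadha* and *Hadhb* overlap, and the 1 box of *Hadha* is also among the 4 of *Hadhb*, so it was counted for both. The hexamer was in 2 of the 9 and in 16.3% of all promoters. A pair of hexamers 1 base apart (AGGTCANAGGTCA), the kind of element bound by PPARα with RXR, was in none of the 9 with up to 2 mismatches, and in 3.86% of all promoters. On both strands, TCAAGGTCA, which contains the hexamer, and TATAAA were in none of the 9, against 0.423% and 13.6% of all promoters, and CCAAT was in 2 of 9, against 37.4%. These are matches of letters within 300 bases and say nothing about sites elsewhere.

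*Acadvl* was measured at 345, 344.5, 372 and 382 CPM in the vehicle livers and at 476, 509, 438 and 526 CPM in the ISOGK livers. The groups did not overlap, and the lowest ISOGK liver was mouse 3. This was a log2 fold change of 0.43 ± 0.095 (SE, n = 4 per group, edgeR adjusted p = 0.0181). *Acadvl* overlaps *Dvl2* on the opposite strand and strand use in the counting is not stated. *Dvl2* was at 2.44 ± 0.423 CPM under vehicle and 3.74 ± 0.788 CPM under ISOGK (SD, n = 4 each), and its part in the reads of *Acadvl* was not tested. Without vehicle mouse 1, vehicle mouse 2 or ISOGK mouse 2 the adjusted p of *Acadvl* was 0.0582, 0.0739 and 0.0522.

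*Acadl*, the long-chain enzyme of mouse liver, was at 166, 150.1, 168 and 159 CPM under vehicle. Under ISOGK it was at 204, 201, 205 and 209 CPM. The ISOGK livers were the more even group, with a coefficient of variation of 1.63% against 4.92%, and again no liver of one group reached the other. On the log2 scale *Acadl* rose by 0.35 ± 0.083 (SE, edgeR adjusted p = 0.0259). This call was lost without any 1 of the 4 vehicle mice or ISOGK mouse 2, where the adjusted p ran from 0.0522 to 0.102, while the fold change stayed between 0.32 and 0.37. A processed pseudogene, Gm15793, lies within the *Acadl* gene, and how reads between them were divided is not stated.

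*Acadm* encodes MCAD, the medium-chain enzyme. It was at 342, 301, 328 and 309 CPM in the vehicle livers and at 381, 369, 396 and 353 CPM in the ISOGK livers. The groups did not overlap, but the highest vehicle liver and the lowest ISOGK liver were only 10.9 CPM apart. Its log2 fold change was 0.23 ± 0.089 (SE), with an edgeR adjusted p of 0.142 and a 95% confidence interval from 0.03 to 0.42. Groups that did not overlap with ISOGK higher were found in 7.92% of all genes, and in 8 of the 10 members.

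*Acads* encodes SCAD, the short-chain enzyme. Its level was 97.2, 98.8, 108 and 115 CPM under vehicle and 117, 125, 91.5 and 128 CPM under ISOGK. ISOGK mouse 3 was the lowest of all 8 livers, and the other 3 ISOGK livers were above every vehicle liver. The log2 fold change was 0.14 ± 0.115 (SE, edgeR adjusted p = 0.50), and its 95% confidence interval of -0.11 to 0.39 includes the value measured for *Acadl*. Without ISOGK mouse 3 the log2 fold change was 0.23.

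Across the 4 dehydrogenases the point estimates followed chain length, from 0.43 for *Acadvl* through 0.35 and 0.23 to 0.14 for *Acads*. Neighbours in that order lay within each other's 95% confidence intervals. Without ISOGK mouse 3 the order did not hold, as *Acads* had 0.23 and *Acadm* 0.19. The ratio of one gene to another within 1 liver does not depend on the scaling between libraries. The log2 ratio of *Acads* to *Acadvl* was -1.83, -1.80, -1.78 and -1.73 in the vehicle livers and -2.03, -2.02, -2.26 and -2.04 in the ISOGK livers. The short-chain transcript was lower relative to the very-long-chain one in each ISOGK liver, by 0.30 at the mean. *Acadl* over *Acadm* was also apart, with a mean of -0.99 ± 0.039 under vehicle and -0.87 ± 0.083 under ISOGK (SD, n = 4 each). On that scale the nearest livers of the groups differed by only 0.010. *Acadl* over *Acadvl*, *Acadm* over *Acadvl* and *Acads* over *Acadm* overlapped between groups, with mean differences of -0.08, -0.20 and -0.10.

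**Figure D2:**
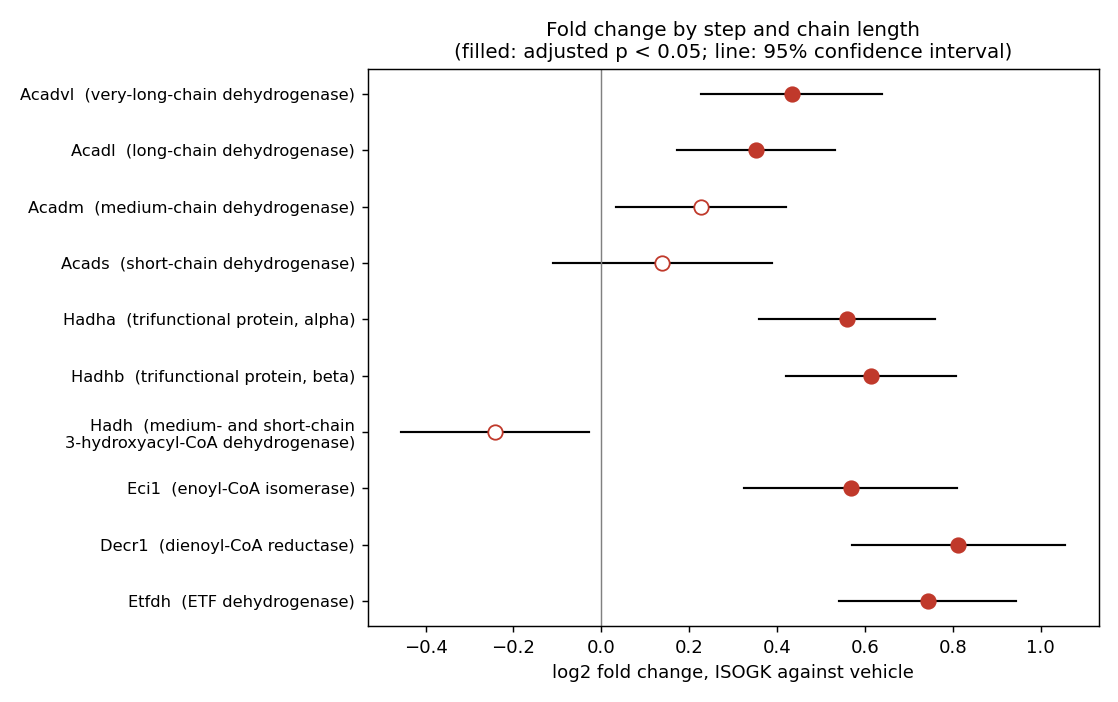
Log2 fold change of each transcript in the ISOGK group against the vehicle group (horizontal axis), listed by step and chain length. Points are edgeR estimates, filled where the adjusted p was under 0.05, and lines are 95% confidence intervals. Values run from -0.24 for Hadh to 0.81 for Decr1, with the medium- and short-chain enzymes Acadm, Acads and Hadh open.

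The later steps on long chains depend on the trifunctional protein, whose alpha subunit carries the hydratase and the long-chain 3-hydroxyacyl-CoA dehydrogenase and whose beta subunit carries the thiolase. *Hadha* was at 339, 279.9, 325 and 330 CPM in the vehicle livers, and at 460, 479, 460 and 478 CPM in the ISOGK livers. The ISOGK livers lay within 19.7 CPM of each other and at least 121 CPM above each vehicle liver. On the log2 scale *Hadha* rose by 0.56 ± 0.092 (SE, edgeR adjusted p = 0.00467). *Hadha* overlaps *Garem2* on the other strand. *Garem2* was not among the genes tested, and its part in the reads of *Hadha* was not tested.

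*Hadhb* was at 204, 188, 218 and 207 CPM under vehicle and at 326, 324, 294 and 306 CPM under ISOGK. The log2 fold change of 0.61 ± 0.089 (SE, edgeR adjusted p = 0.00227) was close to that of *Hadha*. The log2 ratio of *Hadhb* to *Hadha* overlapped between groups, with means of -0.64 ± 0.076 under vehicle and -0.59 ± 0.071 under ISOGK (SD, n = 4 each). The subunits are assembled together, and their genes lie head to head on chromosome 5, *Hadha* at chr5:30118304-30155162 on the minus strand and *Hadhb* at chr5:30155248-30184593 on the plus strand. The 85 bases between these annotated genes are shown because the annotated starts of both subunit genes, which moved by a like amount, flank them (GRCm38.p6, plus strand, read toward *Hadhb*). Capitals mark GC boxes, of which there were 2.
Hadha to Hadhb, chr5:30155163-30155247: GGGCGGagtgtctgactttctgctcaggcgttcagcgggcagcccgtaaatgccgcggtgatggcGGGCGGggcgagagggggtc
The start sites that RefSeq gives for the pair were 273 bases apart, so part of the *Hadha* gene as annotated by GENCODE lies before its RefSeq start.

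*Hadh* encodes the matrix 3-hydroxyacyl-CoA dehydrogenase that acts on medium and short chains, and its point estimate alone among the 10 was below 0, without being called. It was at 264, 282, 274 and 309 CPM in the vehicle livers and at 249, 261, 211 and 234 CPM in the ISOGK livers. Every ISOGK liver was below every vehicle liver, although the nearest pair, vehicle mouse 1 and ISOGK mouse 2, differed by only 3.47 CPM. The log2 fold change was -0.24 ± 0.098 (SE), with a 95% confidence interval from -0.46 to -0.03 and an edgeR adjusted p of 0.154. Groups that did not overlap with ISOGK lower were found in 7.36% of all genes, and *Hadh* was the only member among them.

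Within each liver, *Hadh* and *Hadha*, third-step dehydrogenases for shorter and for long chains, were set against each other. The log2 ratio of *Hadh* to *Hadha* was -0.36, 0.01, -0.25 and -0.10 in the vehicle livers and -0.88, -0.88, -1.13 and -1.03 in the ISOGK livers. It was lower by 0.81 at the mean, the largest difference among the 8 ratios examined, and the nearest livers of the groups were 0.52 apart. Every ISOGK liver was below every vehicle liver for *Hadh* and above every one for *Hadha*. The separation of this ratio therefore follows from the values already given and is no further result. *Hsd17b10*, a matrix dehydrogenase of short-chain and branched substrates, was in none of the ratios. Its log2 fold change went the other way, at 1.05.

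**Figure D3:**
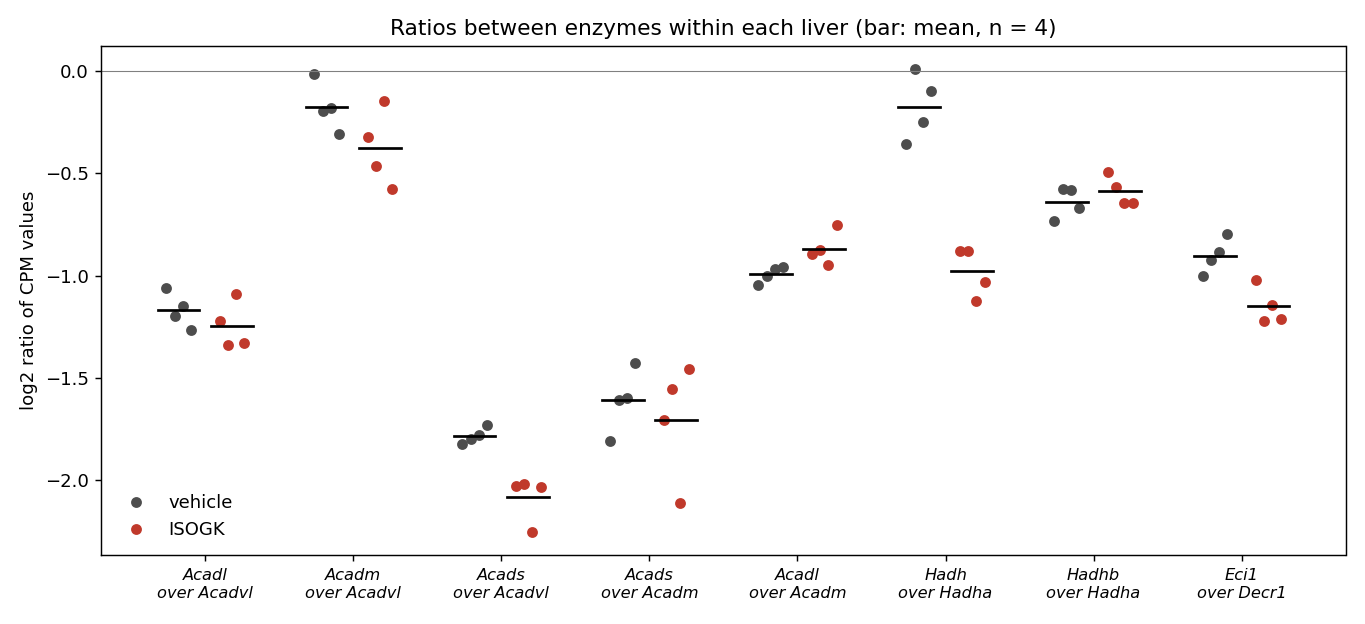
Log2 ratio of the CPM values of paired enzymes within each liver (vertical axis), vehicle in grey and ISOGK in red, with bars at the means of 4 mice. Hadh over Hadha, Acads over Acadvl and Eci1 over Decr1 are lower in every ISOGK liver, Acadl over Acadm is higher in every ISOGK liver, and the other 4 ratios overlap.

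Unsaturated fatty acids need auxiliary enzymes, and both of those among the 10 members rose. *Decr1*, the mitochondrial dienoyl-CoA reductase (chr4:15917240-15945507), was at 152, 123, 148 and 134 CPM in the vehicle livers and at 255, 278, 207 and 239 CPM in the ISOGK livers. Its log2 fold change of 0.81 ± 0.112 (SE, edgeR adjusted p = 0.00178) was the highest of the 10. *Eci1*, the enoyl-CoA isomerase (chr17:24426641-24439348), was at 76.0, 65.0, 80.0 and 77.0 CPM under vehicle. Under ISOGK it was at 126, 119, 93.7 and 103 CPM. The groups did not overlap for either gene, and ISOGK mouse 3 was the lowest of its group for both. For *Eci1* the log2 fold change was 0.57 ± 0.111 (SE, edgeR adjusted p = 0.0106). Relative to *Decr1*, *Eci1* was lower in every ISOGK liver, by 0.25 on the log2 scale at the mean, but the nearest livers of the groups were only 0.019 apart.

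*Etfdh* encodes the iron-sulfur flavoprotein that hands electrons from ETF to ubiquinone, and it serves acyl-CoA dehydrogenases of every chain length. It was at 243, 204, 206 and 218 CPM in the vehicle livers and at 349, 372, 381 and 357 CPM in the ISOGK livers. The lowest ISOGK liver exceeded the highest vehicle liver by 106 CPM. The log2 fold change of 0.74 ± 0.092 had the smallest edgeR adjusted p of the members, 0.00117. *Etfdh* (chr3:79603788-79629500, minus strand) overlaps 4930579G24Rik on the other strand, which had a mean under 1 CPM in both groups. It also overlaps Gm37973 on the same strand, and how reads between them were divided is not stated. The RefSeq start site of *Etfdh*, chr3:79628767, lies inside the gene as annotated by GENCODE, and so does the promoter window searched for motifs.

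Summed over the 10 genes, the level was 2037 to 2240 CPM in the vehicle livers and 2778 to 3036 CPM in the ISOGK livers. The members did not all follow the same mice. Vehicle mouse 2 was the lowest of its group for 8 of the 10 genes, and ISOGK mouse 3 for 6, while ISOGK mouse 3 was the highest of its group for *Acadm* and *Etfdh*. Over the 8 livers the correlation between pairs of members had a median Pearson r of 0.886 over 45 pairs, with 37 positive, and the 8 negative pairs all involved *Hadh*. These correlations include the difference between treatments. After the mean of each group was removed the median r was 0.434, from -0.62 for *Acadm* with *Acads* to 0.965 for *Acadvl* with *Acads*. *Hadhb* and *Eci1* then had an r of 0.941 and *Hadha* with *Hadhb* 0.631. The points of each pair share libraries and scaling, and are given as a description. Leaving out vehicle mouse 4, whose library held muscle transcripts, gave 6 members called higher. *Acadl* then had an edgeR adjusted p of 0.071 and *Hadh* a log2 fold change of -0.20. In that fit 2.4% of 12437 genes were called higher, against 4.11% of all genes tested with every mouse included.

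Levels between genes were compared per kilobase of the union of annotated exons. In the vehicle group *Acadvl* was the highest of the 10, at 134 ± 7.09 CPM per kilobase (SD, n = 4). *Acadm* and *Acadl* followed at 81.8 ± 4.69 and 80.1 ± 3.94 CPM per kilobase, which do not differ beyond their spread, then *Hadh* at 56.7 ± 3.82 and *Acads* at 46.2 ± 3.64. *Hadha*, *Decr1*, *Eci1*, *Hadhb* and *Etfdh* lay between 36.5 and 29.0 CPM per kilobase, with neighbours within their spread. In the ISOGK group *Acadvl* was still the highest, at 181 ± 14.5 CPM per kilobase. *Decr1* followed *Acadm* at 63.1 ± 7.61 CPM per kilobase, and the other 6, *Hadh* among them, lay between 53.8 and 47.4 CPM per kilobase, with neighbours within their spread. The order depends on the length assumed: by coding length *Hadh* was the highest in the vehicle group, at 299.6 ± 20.2 CPM per kilobase, and *Acadvl* the third, and in the ISOGK group *Acadm* was the highest and *Hadh* the second. *Acads* was the lowest of the 4 acyl-CoA dehydrogenases by each of the 3 lengths used.

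Another 10 enzymes and carriers were listed with the mitochondrial pathway and tested. In the ISOGK group 3 of them rose and none was called lower, and the median of their log2 fold changes was 0.09. *Hsd17b10*, a matrix dehydrogenase of short-chain and branched substrates, rose by 1.05 ± 0.131 on the log2 scale (SE, edgeR adjusted p = 0.00121), from 103 ± 7.90 to 212 ± 37.9 CPM (SD, n = 4 each). *Acad11*, an acyl-CoA dehydrogenase by family, and *Eci2*, an isomerase of the same reaction as *Eci1*, rose by 0.65 ± 0.098 and 0.66 ± 0.116 (SE). Where in the cell the products of *Acad11* and *Eci2* act was not examined. *Acaa2*, the medium-chain thiolase that completes the turn, and *Echs1*, the short-chain hydratase, had log2 fold changes of 0.13 ± 0.116 and -0.14 ± 0.114 (SE) and were not called. For the ETF subunits the log2 fold changes were 0.05 ± 0.084 for *Etfa* and 0.40 ± 0.113 for *Etfb* (SE), neither called, with an edgeR adjusted p of 0.0514 for *Etfb*. *Acad9*, *Acad10* and *Acad12* lay between -0.17 and -0.02 and were not called.

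Long-chain fatty acids enter mitochondria through activation and the carnitine shuttle, and 7 of 10 such genes rose, with a median log2 fold change of 0.72. *Slc22a5*, the carnitine transporter of the cell membrane, rose by 1.15 ± 0.156 on the log2 scale (SE, edgeR adjusted p = 0.00185). *Slc25a20*, the carrier of the inner membrane, rose by 0.84 ± 0.119, and *Crat*, carnitine acetyltransferase, by 1.44 ± 0.217 (SE). *Cpt1b*, the isoform best known from muscle, was counted 0, 6, 17 and 21 times in the vehicle libraries and 107, 60, 121 and 90 times in the ISOGK libraries. It rose at an edgeR adjusted p of 0.00727, and at these counts the size of its fold change is poorly set. The muscle markers had 4 to 11 counts in the ISOGK libraries.

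Of 5 medium- and short-chain acyl-CoA synthetases tested, which activate shorter chains inside the mitochondrion, none rose. *Acsm5* fell by 0.61 on the log2 scale (SE 0.122, edgeR adjusted p = 0.0116), from 87.5 ± 10.6 to 57.3 ± 8.17 CPM (SD, n = 4 each). *Acsm1*, *Acsm2* and *Acsm3* were not called, with log2 fold changes of -0.33, 0.63 and -0.07, and *Acsm2* was under 1 CPM in both groups.

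The other dehydrogenases that feed ETF, those of branched amino acids, lysine, choline derivatives and hydroxyglutarate, were compared because they share *Etfdh* with the members. Of the 7 examined none was called in either direction by edgeR, 3 had an unadjusted p under 0.05, as 2973 of all 12307 genes did, and the median of their log2 fold changes was -0.22. *Acadsb*, *Ivd*, *D2hgdh* and *Acad8* had log2 fold changes of -0.37, -0.25, -0.24 and 0.15. Among 5 genes of flavin supply *Slc52a2*, a riboflavin transporter, rose by 0.62 ± 0.146 (SE, edgeR adjusted p = 0.0268), a call lost without vehicle mouse 1 or 2 or ISOGK mouse 2 or 4, at adjusted p-values of 0.0541 to 0.0919. *Flad1*, *Rfk* and *Slc25a32* had log2 fold changes of 0.28, 0.12 and -0.26 and were not called.

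Peroxisomes shorten very long chains before mitochondria take them over. Of 14 peroxisomal genes examined 8 rose and *Pecr*, a reductase of chain elongation, was called lower, a call lost without any 1 of the 8 mice, and the median log2 fold change was 0.42. *Ehhadh*, the bifunctional enzyme, rose by 2.57 ± 0.118 on the log2 scale (SE, edgeR adjusted p = 4.65e-07), from 309 ± 29.6 to 1837 ± 194 CPM (SD, n = 4 each). *Abcd3*, an importer of acyl groups, and *Crot* rose by 0.77 ± 0.115 and 0.77 ± 0.137 (SE). *Decr2*, the peroxisomal counterpart of *Decr1*, rose by 0.61 ± 0.112 (SE, edgeR adjusted p = 0.00757). The fold change of *Ehhadh* was above that of every mitochondrial member.

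Acetyl-CoA from beta-oxidation goes to ketone bodies or to the tricarboxylic acid cycle. *Acat1*, acetoacetyl-CoA thiolase, and *Bdh1*, hydroxybutyrate dehydrogenase, had log2 fold changes of 0.30 ± 0.088 and -0.01 ± 0.114 (SE) and were not called. Of 18 genes of the tricarboxylic acid cycle 3 rose, *Dlst* by 0.63 ± 0.102, *Fh1* by 0.69 ± 0.179 and *Ogdh* by 0.34 ± 0.091 (SE), and the median was 0.10. The call of *Fh1* was lost without any 1 vehicle mouse or ISOGK mouse 2 or 4, and that of *Ogdh* without any 1 vehicle mouse or ISOGK mouse 2, at edgeR adjusted p-values of 0.0658 to 0.138. *Sdhd* had 0.36 ± 0.117 (SE) and was not called. None of the 13 transcripts of the mitochondrial genome was called by edgeR, and 1 had an unadjusted p under 0.05. Their log2 fold changes ran from -0.28 for *mt-Nd4* to 0.27 for *mt-Nd3*, with 0.22 for *mt-Nd1* and -0.20 for *mt-Nd2*. Their summed level was 71630 to 87428 CPM under vehicle and 73608 to 82032 CPM under ISOGK.

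**Figure D4:**
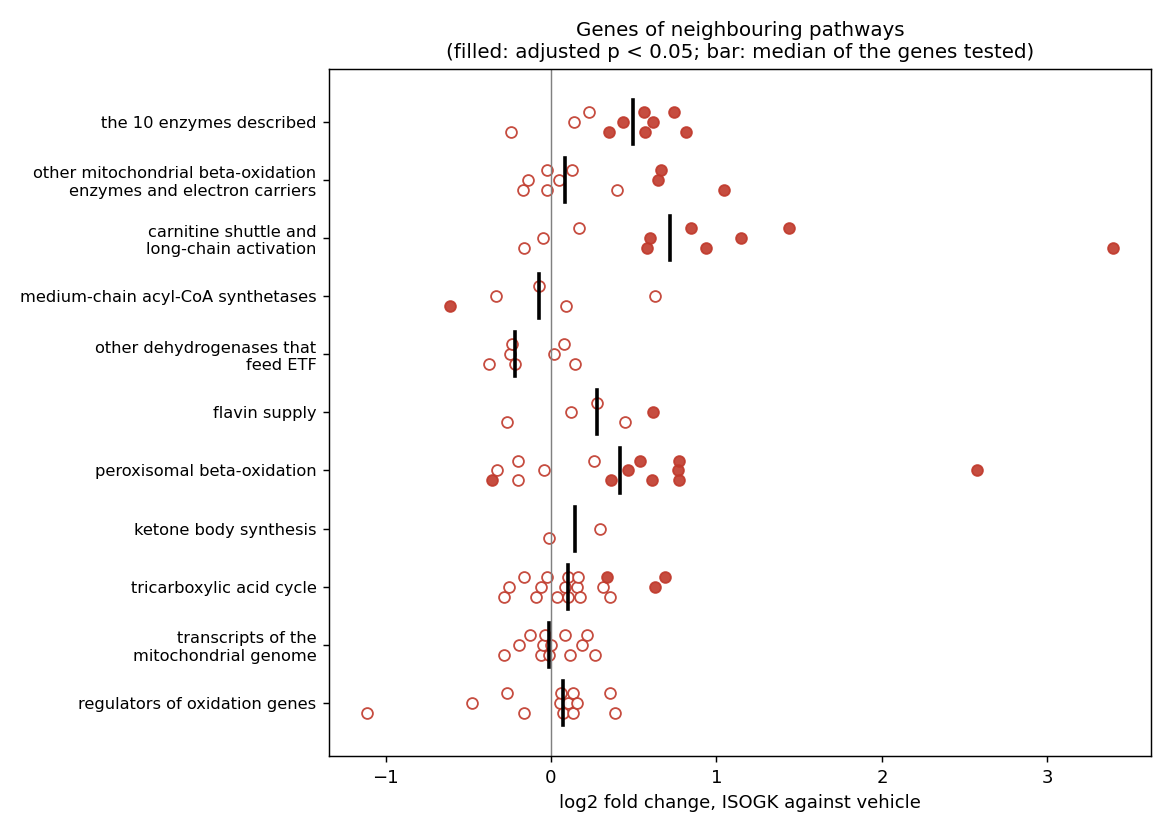
Log2 fold change in the ISOGK group against the vehicle group (horizontal axis) of genes in 11 lists around beta-oxidation. Points are genes, filled where the edgeR adjusted p was under 0.05, and bars are the median of each list. Medians run from -0.22 for the other dehydrogenases that feed ETF to 0.72 for the carnitine shuttle, and the 10 enzymes described lie at 0.50.

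Genes listed as regulators of oxidation genes, mostly transcription factors and coactivators, were read at the level of their own transcripts. None of 13 was called by edgeR, and none had an unadjusted p under 0.05. *Ppara*, the fatty acid receptor that drives many oxidation genes in liver, was at 77.1 ± 6.33 CPM under vehicle and 80.5 ± 12.0 CPM under ISOGK (SD, n = 4 each). *Gabpa*, *Pparg*, *Rxra* and *Ppargc1b* had log2 fold changes of -0.26, 0.39, -0.17 and -0.48, all uncalled. These are transcript levels, and the activity of the regulators was not measured.

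Outside these lists, the genes whose log2 CPM followed the mean profile of the 10 members most closely over the 8 livers were *Gpd1*, *Ten1*, *Map1lc3a*, *Retsat* and *Nsmf*. Their Pearson r was 0.993, 0.990, 0.985, 0.983 and 0.981. *Gpd1*, cytosolic glycerol-3-phosphate dehydrogenase, was at 223 ± 24.9 CPM under vehicle and 403 ± 45.1 CPM under ISOGK, and *Retsat*, retinol saturase, at 417 ± 70.7 and 1048 ± 101 CPM (SD, n = 4 each). *Ten1*, of the CST complex at telomeres, was at 0.620 ± 0.128 and 1.91 ± 0.421 CPM. *Map1lc3a*, of the autophagosome membrane, was at 17.9 ± 1.21 and 27.8 ± 3.29 CPM, and *Nsmf* at 42.7 ± 2.15 and 62.7 ± 5.87 CPM. The points share libraries and the difference between treatments, so the likeness is a description.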

How the data were processed

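Liver RNA of 4 vehicle-treated and 4 ISOGK-treated mice was measured with 1 library per mouse, grouped by the deposited labels. The authors aligned single-end Illumina reads with HISAT2 and took raw counts from StringTie. The deposited values are these whole-number counts, 1 row per gene symbol and not normalized. The submitters' processing notes name mm10, and the annotation release and strand use are not given in the sources used here. The authors' own test was DESeq2.

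The 10 members and the gene lists were chosen with earlier results of these data known. Genes were filtered with filterByExpr of edgeR (minimum count of 10, minimum total of 15), scaled with TMM and fitted with the robust quasi-likelihood model of edgeR 4.0.16 in R 4.3.3. Benjamini-Hochberg adjustment was made over all 12307 genes tested. CPM use TMM factors, and log2 CPM add a prior count of 2. No block was used, and the p-values measure the spread between 4 mice per group. The total depth was 17457106 to 24461854 counts per library, and the spread between mice, as a biological coefficient of variation, was 0.164. Counting error was not compared with that spread gene by gene. It weighs more in genes of few counts, such as *Cpt1b*, *Acsm2* and *Ten1*. No pair of libraries agreed within sampling noise (chi-square per gene of 18.1 or more).

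Exact permutation tests, two-sided, on log2 CPM gave p = 0.0286, the smallest that 4 against 4 allow, for each member except *Acads*, with p = 0.314. That smallest p only restates that the groups do not overlap. Such groups were found in 7.92% of all genes tested with ISOGK higher and in 7.36% with ISOGK lower. No test was run on ratios, lists or correlations. Coordinates and lengths are those of GENCODE M21 (GRCm38), promoter sequences are from RefSeq (GRCm38.p6), with none for *Decr1*, and motifs were searched on both strands. All 10 members are named, with every gene of the list of other mitochondrial enzymes, up to 4 genes of the other pathway lists by smallest adjusted p, *Ppara*, *Apoe* and the 5 genes most alike. A few genes of the pathway lists are left unreported, and the lists are counted without them. *Cd68*, *Sox9*, *Pecr* and the genes overlapping members were named after their values were seen. Alternatives were DESeq2 1.42.0, limma-voom (limma 3.58.1), DESeq2's size factors, library size alone, other filters, no robust option, the replicate block, other gene lengths and each mouse left out. A correction for GC content and length, available for 98.6% of the genes tested, was chosen after the data were examined. The fits were tested on simulated counts. Figures were drawn with matplotlib.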

Additional observations from a re-analysis of the deposited data

Results flagged for a closer look

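Outlying livers were looked for in 122 groups of 4 values, and about 6.1 such groups are flagged by chance alone. Among the 10 members no group held a liver that stood apart, and 2 groups of other named genes did, by the gap of 1 liver to its nearest neighbour as a part of the whole range. *Acad12* in the vehicle group had 0.871, where mouse 3 was at 7.48 CPM and the others between 8.31 and 8.43 CPM. *Slc22a5* in the vehicle group had 0.839, where mouse 2 was at 21.1 CPM and the others between 28.6 and 30.1 CPM.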

How the results depend on the processing

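Over 17 alternatives to the edgeR fit, *Hadha*, *Hadhb*, *Eci1*, *Etfdh* and *Decr1* kept their calls and no member changed direction. *Acadvl* was not called in 4 and *Acadl* in 7 of the 17, and 5 to 7 members were called higher. The share of all genes tested that was called higher ran from 1.76% without vehicle mouse 2 to 6.22% with DESeq2. By library size alone, *Acadvl* and *Acadl* had edgeR adjusted p-values of 0.0671 and 0.143, and *Hadh* was called lower (-0.37, adjusted p = 0.0424), so 1 member was lower. The correction for GC content and length also gave 1 member lower, *Hadh* (-0.30, adjusted p = 0.0471), with 483 of 12307 genes called lower. The replicate numbers do not pair the mice: deviations of same-numbered mice had correlations of 0.013, -0.014, 0.075 and 0.085, and 1 of 4 vehicle mice was most like the ISOGK mouse of its number. With the replicate block 6 members and 3.34% of all genes tested were called higher. *Acadl* then had an edgeR adjusted p of 0.0531, and the block gave 0 peroxisomal genes lower. The cause of these differences was not tested.

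Among the lists, medium-chain synthetases called lower were 2 with the GC correction, library size or DESeq2. By library size 1 of the ETF-feeding dehydrogenases was called lower. Flavin genes called higher were 0 by library size and 0 to 1 with each mouse left out. Peroxisomal genes called lower were 0 with no filter, limma-voom, no robust option or any mouse left out. Of *Acat1* and *Bdh1*, 1 was called higher with the GC correction and 1 with DESeq2. Genes of the tricarboxylic acid cycle called higher were 1 by library size and 1 to 4 with each mouse left out, and 2 were lower by library size. The level of *Acadvl* per kilobase was 2.91 times that of *Acads* by exon union and 2.16 times by coding length. That of *Acadl* was 1.73, 1.496 by the longest coding transcript and 1.47 by coding length, and that of *Acadm* 1.77, 2.79 and 2.99.

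Changes of sign were limited to uncalled genes near 0. With the GC correction *Etfa* had a log2 fold change of -0.032, *Acad9* 0.0073 and *Acsm3* 0.010. By library size *Acaa2* had -0.012, *Etfa* -0.082, *Rfk* -0.011 and *Ppara* -0.062. With each mouse left out, *Acsm3* ran from -0.13 to 0.015, *Acad9* from -0.085 to 0.038, *Acad10* from -0.11 to 0.042, *Bdh1* from -0.083 to 0.058 and *Ppara* from -0.0057 to 0.14.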
